A study of Mus musculus with 8 samples.

Results

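Complex I (NADH:ubiquinone oxidoreductase) is the entry point of the mitochondrial respiratory chain. Its matrix arm takes electrons from NADH through a flavin and a chain of iron-sulfur clusters to ubiquinone, and its membrane arm pumps protons across the inner membrane. The proton-pumping core subunits are encoded by mitochondrial DNA, whereas every other subunit and all assembly factors are made from nuclear genes, so their promoters can be read in chromatin maps. Assembly factors help to build the complex and are absent from the finished enzyme.

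The genes examined were 42 nuclear genes named for complex I, of 26180 curated mouse RefSeq genes. They were chosen by name: 35 subunits (6 of the nuclear core subunits, 9 other subunits of the matrix arm, 19 other subunits of the membrane arm, and Ndufab1, which sits in both arms) and the 7 assembly factors Ndufaf1 to Ndufaf7. The study mapped the histone acetyltransferase MOF, which places acetyl groups on lysine 16 of histone H4, by ChIPseq, and the transcription factor Rfx2 and several histone marks by Cut&Run. All libraries came from total epidermal cells of wild-type mice at postnatal day 0.5, with no mutant, treatment or control group among them. Peak lists of MOF, Rfx2, H3K4me3 (a mark of active promoters) and H3K27Ac (a mark of active promoters and enhancers) were used here, 1 list per antibody. There was therefore no replicate error and no test, and each value describes 1 library. The libraries of H4K16Ac and H3K4me1 were not analysed here.

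The promoter window of a gene began 1 kb before each of its transcription start sites (TSSs) and ended 100 bp past it, and a peak sharing at least 1 bp with it was assigned to the gene. The lists held 17546 MOF, 27039 H3K4me3, 30736 H3K27Ac and 337 Rfx2 peaks. They hold no read counts, and library depth, which the study states and which differed between libraries, was not used here, so list lengths are not compared. The MOF list is longer than the number of MOF peaks that the study states, so it may be a different or less strict call, and every MOF count and rank given here rests on it. Of 12 epidermal marker promoters, 8 carried H3K4me3 (66.7%, interval 34.9 to 90.1%) and 6 carried H3K27Ac, which is near the 54% and 44.1% of all genes, so these markers do not verify the tissue label. Both marks lay at Krt14, Itgb4, Dsp, Perp and Sfn, H3K4me3 alone at Krt5, Trp63 and Col17a1, H3K27Ac alone at Itga6, and neither at Krt1, Krt10 or Lor. H3K4me3 lay at 2 of 4 melanocyte markers (Pmel and Mitf, both with H3K27Ac), at 2 of 4 dermal fibroblast markers (Col1a2 and Pdgfra, both without), and at 0 of 4 immune, 0 of 2 endothelial and 0 of 5 markers of other organs. What cells other than keratinocytes added to the peaks was not tested. Fewer cells with a mark and less of it per cell cannot be told apart in such bulk lists.

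MOF lay at the promoters of 29 of the 42 complex I genes, or 69% (exact 95% interval 52.9 to 82.4%), whereas 23.7% of all genes had a MOF peak there. All 42 promoters carried H3K4me3 (interval 91.6 to 100%) and all 42 carried H3K27Ac, against 54% and 44.1% of all genes. These counts rest on overlap: where the centre of the peak had to lie in the promoter window, H3K4me3 counted at 18 genes and H3K27Ac at 28. MOF was therefore also set beside the 11282 genes that had both marks, of which 48.8% had MOF. Among the 9037 of these whose H3K4me3 width and fold enrichment lay within the range of the complex I genes, 51% had it. The lower bound of the complex I interval lay above both shares, for a set of genes that was chosen with earlier results of these data known. The comparison with genes that had both marks was not rerun in alternative settings, which used all genes with H3K4me3 instead (42% in the main setting). With the higher 50% of each list, MOF lay at 19 of 42 (45.2%, interval 29.8 to 61.3%), and the bound no longer lay above the 29.9% of all genes with H3K4me3. Nor did it where 50% of the shorter of peak and window had to be shared (57.1% of 28 genes with H3K4me3, interval 37.2 to 75.5%, against 37.5%). Rfx2 lay at 0 of the 42 promoters, which allows a share of up to 8.41%, and at 1.21% of all genes, so a share at the background level was not detectable with 42 genes. Intervals cover counting error over genes only.

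**Figure D1:**
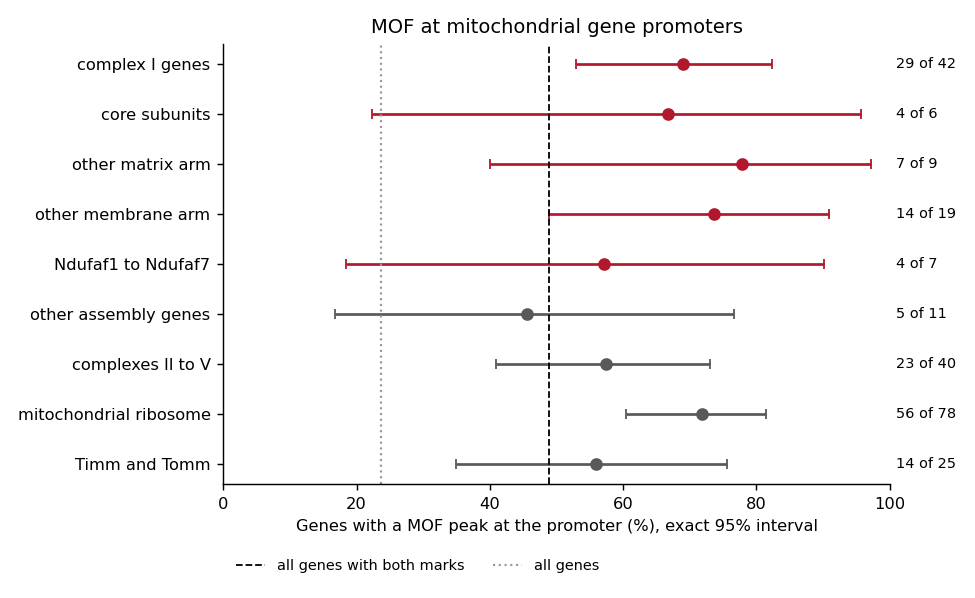
Share of genes with a MOF peak at the promoter (horizontal axis, percent) for complex I genes and their groups (red) and for other mitochondrial gene lists (grey). Points are shares, bars are exact 95% intervals, counts stand at the right, and vertical lines mark all genes (23.7%) and genes with both marks (48.8%); the complex I genes (69%) and the mitochondrial ribosome (71.8%) have intervals that lie above both lines.

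Other mitochondrial genes were read in the same way. MOF lay at 56 of 78 genes of mitochondrial ribosomal proteins (71.8%, interval 60.5 to 81.4%), at 23 of 40 genes of respiratory complexes II to V (57.5%, 40.9 to 73%) and at 14 of 25 Timm and Tomm genes, which build the protein import channels (56%, 34.9 to 75.6%). All of these intervals overlapped that of complex I. Of 11 other genes that act in complex I assembly, 5 had MOF (45.5%, 16.7 to 76.6%). The MOF score was 900 at Timmdc1, 782 at Foxred1, 571 at Tmem70, and 423 at both Tmem126b and Tmem186, and no MOF peak lay at Ecsit, Acad9, Nubpl, Dmac1, Dmac2 or Ndufaf8.

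Within complex I, the groups could not be told apart at this number of genes. MOF lay at 4 of 6 core subunits (interval 22.3 to 95.7%), 7 of 9 other matrix arm subunits (40 to 97.2%), 14 of 19 other membrane arm subunits (48.8 to 90.9%), and 4 of 7 assembly factors (18.4 to 90.1%). Ndufab1, the mitochondrial acyl carrier protein, had none. The 42 genes lie on 16 chromosomes. Both members on chromosome X, Ndufa1 and Ndufb11, lacked MOF, while 29 of the 40 autosomal members had it (72.5%). Over all genes with both marks, MOF lay at 16.2% of 314 genes on chromosome X and at 49.8% of autosomal genes.

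**Figure D2:**
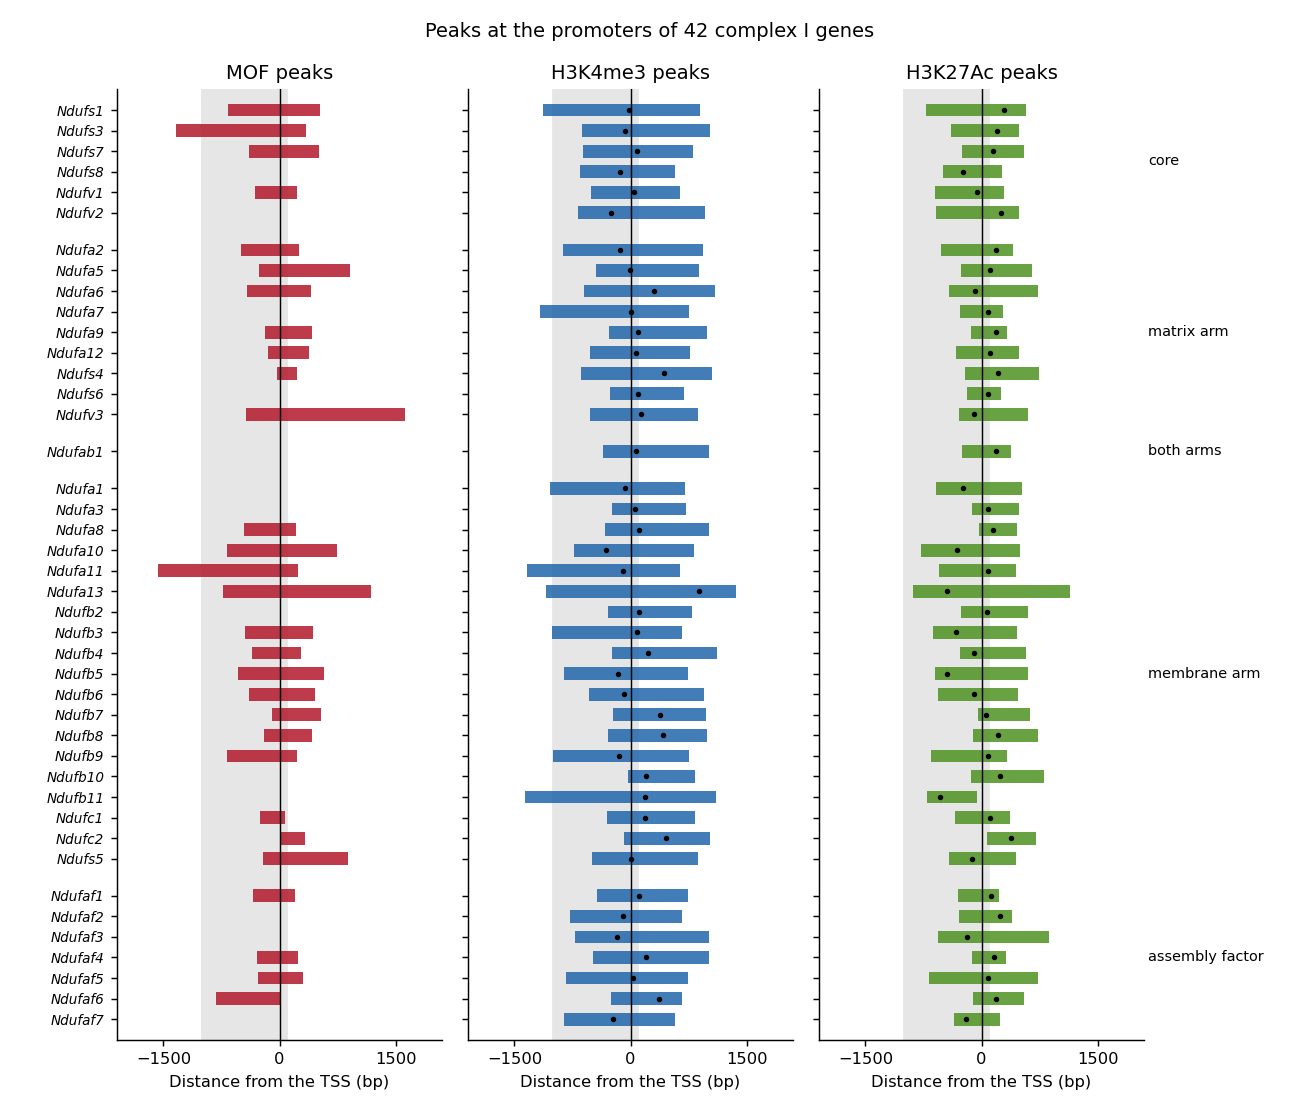
Peaks at each complex I promoter, drawn by distance from the TSS in bp (horizontal axis, transcription to the right) for MOF, H3K4me3 and H3K27Ac. Bars run from the 5′ to the 3′ edge of the peak, dots are peak summits (none given for MOF), grey marks the promoter window and genes with more than 1 TSS are drawn from the first; MOF bars are missing at 13 genes whereas both marks have a bar at all 42.

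The MOF score ranks peaks within the MOF list and its scale was not stated. Over the 29 complex I genes with MOF it ran from 270 to 1773 with a median of 725, and over all 5510 genes with MOF and both marks the median was 665. Of the 29, 18 lay above that median. Ndufaf4, an early assembly factor that works together with Ndufaf3, had the highest score: 1773, in a region of 528 bp at chr4:24897791-24898318 that reached from 292 bp upstream to 235 bp downstream of its TSS. It ranked 530 of all 17546 MOF peaks and stood above 98.4% of genes with MOF. Ndufs5, a membrane arm subunit on the side of the intermembrane space, had the lowest score, 270, in a region of 1096 bp that began 213 bp upstream and ended 882 bp downstream of the TSS. Its peak ranked 17341 in the list, above only 0.565% of genes with MOF. Ndufa3, a small membrane arm subunit, had no MOF peak nearer than 27469 bp and had the highest H3K4me3 fold enrichment of all 42 members (13.8).

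The promoters of these 3 genes are shown because they mark the ends of the range: the highest MOF score, the lowest, and no MOF under the highest H3K4me3. Each runs from 250 bases upstream to 30 bases downstream of the TSS, on the strand of the gene (RefSeq, GRCm38.p6), and capitals mark matches to the ETS, NRF1 and YY1 cores, the GC box, the CCAAT box and the TATA box, whose letters are given further on.
Ndufaf4, chr4:24897833-24898112, plus strand: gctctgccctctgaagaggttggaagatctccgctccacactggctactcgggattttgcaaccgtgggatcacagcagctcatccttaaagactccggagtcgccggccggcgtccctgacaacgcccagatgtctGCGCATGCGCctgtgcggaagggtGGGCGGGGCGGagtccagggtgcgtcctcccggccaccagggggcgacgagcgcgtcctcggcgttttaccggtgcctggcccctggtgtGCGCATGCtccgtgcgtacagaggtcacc
Ndufs5, chr4:123718157-123718436, minus strand: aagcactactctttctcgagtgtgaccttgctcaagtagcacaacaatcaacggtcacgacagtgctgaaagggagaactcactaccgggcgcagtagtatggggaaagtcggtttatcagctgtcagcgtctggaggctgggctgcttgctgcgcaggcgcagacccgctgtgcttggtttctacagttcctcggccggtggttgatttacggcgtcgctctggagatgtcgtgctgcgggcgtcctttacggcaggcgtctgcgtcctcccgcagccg
Ndufa3, chr7:3617123-3617402, plus strand: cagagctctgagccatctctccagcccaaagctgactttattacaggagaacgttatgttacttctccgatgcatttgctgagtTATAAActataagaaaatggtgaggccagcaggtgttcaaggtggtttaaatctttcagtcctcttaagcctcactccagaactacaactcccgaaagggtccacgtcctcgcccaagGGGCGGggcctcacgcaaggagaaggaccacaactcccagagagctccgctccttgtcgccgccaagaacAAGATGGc
The Ndufaf4 sequence, 66.1% G and C, held NRF1 cores at 2 places, the nearer of them starting 1 bp downstream of the TSS, and GC boxes between them. The Ndufs5 sequence (58.6%) held none of these motifs in this window. The Ndufa3 sequence (51.4%) held the letters of a TATA box 166 bp upstream of the TSS, a GC box, and a YY1 core downstream of the TSS.

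Among the core subunits, most of which carry the flavin or iron-sulfur clusters, MOF scores ran from 373 to 1186. Ndufs7, which holds the last cluster before ubiquinone, had a score of 1186 over 895 bp, above 90.5% of genes with MOF. Ndufs1, an iron-sulfur subunit of the NADH-oxidizing module, had 812 over 1190 bp. Ndufs3 had 540 over 1682 bp. Ndufv1, which binds NADH and the flavin, had the lowest score of the core subunits, 373 over 537 bp, although its H3K4me3 fold enrichment of 13.6 was the highest of these 6 genes. Ndufs8 and Ndufv2, both iron-sulfur proteins, had no MOF peak. The nearest one lay 58566 bp from the Ndufs8 TSS and 106625 bp from that of Ndufv2, the longest distance of any member. Both carried the histone marks. The H3K4me3 fold enrichment was 11.6 at Ndufs8 and 7.49 at Ndufv2, above and below the median of 8.18 over all genes with both marks, and that of H3K27Ac was 7.14 and 8.39, both above the median of 6.77.

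In the matrix arm, Ndufa5 had the second-highest score of all members. Its region scored 1267 over 1171 bp and covered both of its TSSs. Ndufs4, whose loss in people causes Leigh syndrome, scored 1116 in the narrowest MOF region of the set, 256 bp, from 28 bp upstream to 227 bp downstream of the TSS. Ndufa9, a nucleotide-binding subunit at the junction of the arms, scored 1070 over 604 bp. These 3 scores stood above at least 86.4% of genes with MOF. Ndufa6, of the LYR family that docks the acyl carrier protein, scored 725 over 826 bp. Ndufa12 (571 over 524 bp), Ndufa2 (560 over 741 bp) and Ndufv3 (522 over 2060 bp) lay below the median of all genes with MOF. The Ndufv3 region was the widest of the set and ran 1628 bp into the gene. Ndufa7 and Ndufs6, a zinc-binding subunit added late in assembly, had no MOF. Ndufs6 also had the lowest H3K27Ac fold enrichment of the matrix arm (4.67) in a peak of 440 bp.

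The membrane arm held 14 genes with MOF. Ndufb8 scored 1250 over 625 bp, Ndufb6 1184 over 860 bp, Ndufb5 1114 over 1113 bp, Ndufb3 1112 over 875 bp and Ndufc1 1015 over 325 bp. All 5 stood above at least 83.9% of genes with MOF. Ndufa8, an intermembrane-space subunit of this arm, followed with 955 over 683 bp, Ndufc2 with 812 over 312 bp, Ndufa13 (also known as GRIM-19) with 699 over 1923 bp, Ndufa10 with 693 over 1418 bp and Ndufb7 with 677 over 634 bp. Below the median of all such genes were Ndufb9 (537 over 902 bp), which is the other LYR subunit, Ndufb4 (494 over 636 bp), Ndufa11 (434 over 1811 bp) and Ndufs5. The 5 genes of this arm without MOF were Ndufa1, Ndufa3, Ndufb2, Ndufb10 and Ndufb11. Ndufb11, which is mutated in an X-linked human disorder with linear skin defects, had an H3K27Ac peak of 643 bp that ended 61 bp upstream of its TSS, and only Ndufb11 and Ndufc2 had H3K27Ac peaks that did not reach the TSS.

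Of the assembly factors, Ndufaf5, which hydroxylates Ndufs7, scored 919 over 574 bp, Ndufaf1 586 over 544 bp and Ndufaf6 571 over 839 bp, beside the 1773 of Ndufaf4. Ndufaf3, the partner protein of Ndufaf4, had no MOF at its promoter, but a MOF peak lay 3084 bp upstream of its TSS, the shortest distance among the 13 genes without MOF. Ndufaf2, a paralog of Ndufa12, and Ndufaf7, which methylates a core subunit, had none either. A MOF peak with a score of 1326 began 6869 bp downstream of the Ndufaf7 TSS, inside the gene, and with GENCODE M21 transcripts, some of which start inside the gene, Ndufaf7 counted as having MOF (30 of 42). Over the 13 genes without MOF, the nearest MOF peak lay 3084 to 106625 bp away (median 27469 bp), and 3 of them had one within 10000 bp (23.1%). Of all 5772 genes with both marks and no MOF, 24.9% had one within that distance.

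**Figure D3:**
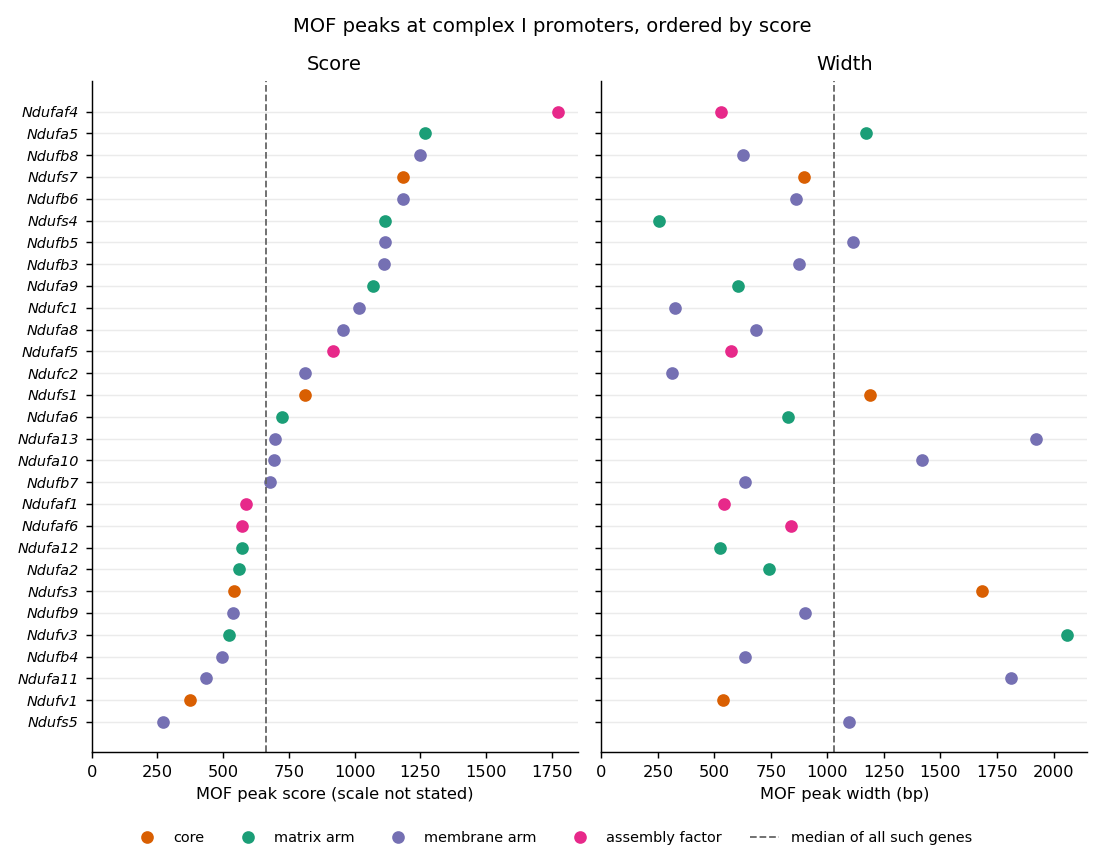
MOF peak score (left, scale not stated) and width in bp (right) at the 29 complex I genes with MOF, ordered by score and coloured by role. Dashed lines are the medians of all genes with MOF and both marks (665 and 1030 bp); 18 genes lie above the first and 20 below the second.

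MOF regions at complex I genes were narrower in the median than those of other genes, and nearly all covered the TSS. The median width was 826 bp, against 1030 bp over all genes with MOF and both marks, and 20 of the 29 lay below the latter. The MOF list also gave 1 or more inner segments within each region, and how they were drawn is not given in the sources used here. These summed to a median of 449 bp at complex I genes and 358 bp at all such genes. The region covered a TSS at 28 of the 29 genes (96.6%), against 87.8% of all genes with MOF and both marks. An inner segment covered it at 22 of 29 (75.9%), against 48.8%. Ndufc2 was the gene whose region missed the TSS: it began 20 bp downstream. Centres of the regions lay from 662 bp upstream (Ndufa11) to 598 bp downstream (Ndufv3) of the TSS, with a median 14 bp downstream. By annotation, 14 centres lay upstream of the gene, 7 in an intron, 5 in the untranslated part of an exon and 3 in coding exons (Ndufs4, Ndufa10 and Ndufb8). At 21 of the 29 genes the whole MOF region lay inside the H3K4me3 peak. This was so at 53.4% of all genes with MOF and both marks, whose MOF regions had a larger median width. The share inside was lowest at Ndufaf6 (32.3%), where MOF reached 825 bp upstream, followed by Ndufs3 (57.6%) and Ndufv3 (63%).

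Both histone marks were present at every promoter and varied in height and width. The H3K4me3 fold enrichment ran from 4.32 at Ndufb10 to 13.8 at Ndufa3. Its median was 9.4 (interval 7.77 to 10.7), against 8.18 over all genes with both marks, which the interval includes. H3K4me3 widths ran from 863 bp at Ndufb10 to 2462 bp at Ndufb11 (median 1426 bp). H3K27Ac ran from 4.5 at Ndufa1 to 12.7 at Ndufa8, with a median of 8.2 (interval 7.14 to 9), against 6.77 over all genes with both marks. Its widths ran from 439 bp at Ndufaf4 to 2022 bp at Ndufa13 (median 862 bp). Ndufaf4 thus combined the highest MOF score with the narrowest H3K27Ac peak. H3K4me3 peaks covered the TSS at all 42 genes, with the summit a median 72.5 bp downstream, and 27 of the 42 summits lay downstream. In both marks, 1 peak lay at each promoter. Where the peaks of either mark lay, whether they reached the TSS, and their number per promoter were not counted over all genes. These values are therefore not set apart from those of other promoters. Wide H3K4me3 peaks were low: Ndufb11 (2462 bp, 5.47), Ndufa13 (2459 bp, 5.51) and Ndufs1 (2019 bp, 5.39) against Ndufa3 (950 bp, 13.8) and Ndufaf1 (1173 bp, 13.6). Across the 42 genes Spearman's rho of width and fold enrichment was −0.69, and it was −0.40 across all 11282 genes. Genes of 1 library are not independent replicates, so these are descriptions. The rho of MOF score with H3K4me3 fold enrichment was −0.17 over the 29 genes and −0.03 over all 5510 genes with MOF and both marks, and that of MOF width with H3K4me3 width was 0.54 and 0.29.

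Histone marks at genes with and without MOF overlapped over most of their ranges. The median H3K27Ac fold enrichment was 8.71 at the 29 genes with MOF (5.06 to 12.7) and 6.67 at the 13 without (4.5 to 11.9). Over all genes with both marks these medians were 7.2 and 6.35, in the same order. For H3K4me3 they were 9.49 (5.39 to 13.6) and 7.49 (4.32 to 13.8) at complex I genes, but 8.06 and 8.3 over all genes, in the opposite order. Set against the medians of all genes with both marks (8.18 for H3K4me3 and 6.77 for H3K27Ac), 23 members lay above both, and 5 of them lacked MOF, against 46.4% of all genes above both: Ndufa3 (13.8 and 11.9), Ndufb2 (10.7 and 11.9), Ndufaf7 (10.7 and 11.4), Ndufs8 (11.6 and 7.14) and Ndufab1 (9.49 and 7.2). Of the 9 members below both, 6 lacked it, against 56.1% of all genes below both: Ndufb10 (4.32 and 6.67), Ndufaf3 (4.52 and 6.62), Ndufb11 (5.47 and 5.48), Ndufs6 (6.92 and 4.67), Ndufa7 (7.21 and 5.89) and Ndufa1 (7.46 and 4.5). The 3 others below both, Ndufs1 (5.39 and 5.79), Ndufa13 (5.51 and 5.06) and Ndufa11 (6.88 and 5.86), had MOF.

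**Figure D4:**
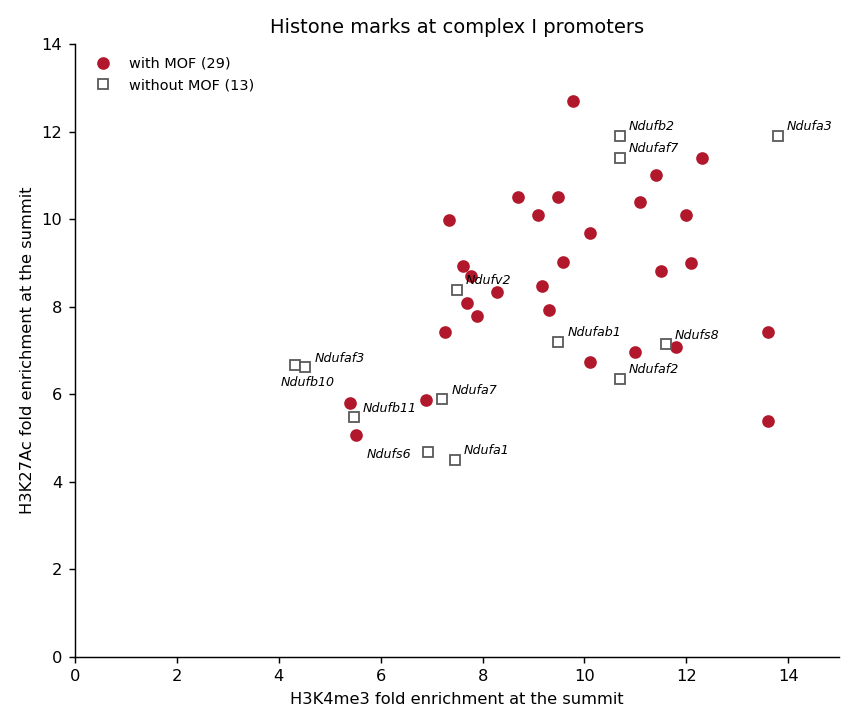
H3K4me3 (horizontal) and H3K27Ac (vertical) fold enrichment at the summit for each of the 42 complex I promoters, filled where MOF lay at the promoter (29) and open and named where it did not (13). Genes without MOF are found at both ends of the range, from Ndufb10 (4.32 and 6.67) to Ndufa3 (13.8 and 11.9).

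Some complex I promoters were shared with a neighbour. At 17 of the 42 genes (40.5%, interval 25.6 to 56.7%) another gene started in the opposite direction within 1 kb, against 27.3% of genes with both marks, a share that the interval includes. MOF lay at 11 of these 17 (64.7%, 38.3 to 85.8%) and at 18 of the other 25 (72%, 50.6 to 87.9%). At 10 of the 11, the same MOF region covered the TSS of the neighbour too, so its MOF signal cannot be assigned to 1 of the 2 genes. The distance between the starts was 9 bp for Ndufs1 and Eef1b2 (a translation elongation factor), 19 bp for Ndufs3 and Kbtbd4, 64 bp for Ndufb3 and Fam126b, and 88 bp for Ndufaf5 and Esf1. Ndufb5 shared its region with Mrpl47, a mitochondrial ribosomal protein gene, at 308 bp. The others were Ndufa2 with Ik, Ndufa8 with Morn5, Ndufa11 with Vmac, Ndufa13 with Tssk6 and Ndufb9 with Tatdn1. At Ndufa5 the region stopped short of the start of Asb15, 454 bp away. Close pairs without MOF were Ndufa7 with Rps28 (a cytosolic ribosomal protein, 10 bp), Ndufaf7 with Cebpz (65 bp), Ndufaf2 with Ercc8 (a DNA repair gene, 113 bp) and, at 883 bp, Ndufaf3 with the microRNA gene Mir191. On chromosome X the transcripts of Ndufa1 and Rnf113a1 overlapped by 16 bp at their starts, and those of Ndufb11 and Rbm10 by 116 bp.

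Promoter sequences could be matched for 38 of the 42 genes, and not for Ndufs1, Ndufa2, Ndufb9 and Ndufaf6. In each, 250 bases upstream to 50 bases downstream of the TSS were searched on both strands for the NRF1 core GCATGCGC, the YY1 core AAGATGG, the ETS core CCGGAAG, the GC box GGGCGG, the CCAAT box CCAAT, the TATA box TATAAA and the X-box, which Rfx proteins bind. NRF1 and an ETS factor (GABP, or NRF2) are known as regulators of nuclear respiratory genes. A match is a description of letters and not a binding site. Matches to the NRF1 core can overlap on opposite strands.

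The NRF1 core was found at 5 genes (13.2%), against 3.82% of all 19528 promoters and 6.78% of the 9075 with both marks. All 5 had MOF, where MOF lay at 56.3% of the 615 genes with both marks and this core, and at 69% of all members. The MOF region of each of the 5 spanned the whole stretch searched, so every match had to lie inside it. All 19 matches to the NRF1, YY1 and ETS cores at members with MOF lay in the region. Of the 9 NRF1 matches, 7 lay in an inner segment and those at Ndufa11 did not. The first match of each gene is shown on the strand of the motif with 6 bases on either side, the core in capitals, to compare the bases around it.
Ndufa6, chr15:82354361-82354380, minus strand: ggtagaGCATGCGCattgca
Ndufa8, chr2:36049333-36049352, minus strand: ggagacGCATGCGCagatgg
Ndufa11, chr17:56717696-56717715, minus strand: gtgcgcGCATGCGCgcagtg
Ndufaf4, chr4:24897964-24897983, minus strand: acaggcGCATGCGCagacat
Ndufaf5, chr2:140170656-140170675, minus strand: ttaggcGCATGCGCcaacgg
Counted along the gene, these cores began 83 bp (Ndufa6), 8 bp (Ndufa8), 60 bp (Ndufa11) and 113 bp (Ndufaf4) upstream and 16 bp (Ndufaf5) downstream of the TSS. MOF scores at these 5 genes ran from 434 (Ndufa11) to 1773 (Ndufaf4).

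The YY1 core lay at 7 genes (18.4%), against 7.17% of all promoters and 8.74% of those with both marks. At all 7 it lay on the strand of the gene, 22 to 38 bp downstream of the TSS, and the ATG inside the core was the annotated start codon, so the match is also part of the coding sequence. Of the 793 genes with both marks and this core, 22.7% had their start codon in it. Of the 7, 5 had MOF (Ndufs7, Ndufa9, Ndufs4, Ndufb8 and Ndufc1) and 2 did not (Ndufs6 and Ndufa3), which is near the share of all members, and 59.5% of those 793 genes had MOF. The windows of 6 of them are shown to compare the bases around the core, with and without MOF.
Ndufs7, chr10:80249467-80249485, plus strand: gaggccAAGATGGcggcgc
Ndufa9, chr6:126849103-126849121, minus strand: tgggagAAGATGGcggccg
Ndufs4, chr13:114388047-114388065, minus strand: tacaggAAGATGGcggcgg
Ndufc1, chr3:51408921-51408939, minus strand: cggaacAAGATGGcgccgt
Ndufs6, chr13:73328437-73328455, minus strand: accggcAAGATGGcggcgg
Ndufa3, chr7:3617389-3617407, plus strand: aagaacAAGATGGccggga
Matches at Ndufs4 and Ndufs6, which lie on the same chromosome, shared the core and the 6 bases after it, and MOF scored 1116 at the former and had no peak nearer than 22377 bp to the latter.

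The ETS core was found at 5 genes (13.2%; 12.4% of all promoters, 22.6% of those with both marks): Ndufs3, Ndufb6, Ndufb7 and Ndufaf1 with MOF, and Ndufs8 without. Of the 2053 genes with both marks and this core, 58.2% had MOF. At Ndufs3 it was present on both strands, at 27 bp upstream and 1 bp downstream of the TSS. At least 1 of the ETS, NRF1 and YY1 cores was present at 17 of the 38 genes (44.7%), against 33.9% of promoters with both marks. MOF lay at 14 of these 17 genes and at 11 of the 21 with none of the cores, where over all genes with both marks the shares were 57.4% and 46.1%. The GC box lay at 20 genes (52.6%), less than the 72.7% of promoters with both marks, and the CCAAT box at 13 (34.2%, against 43.4%). Letters of the TATA box were found at 4 genes (10.5%, against 7.43%), from 52 bp (Ndufa7) to 235 bp (Ndufb7) upstream of a TSS. At Ndufa7 and Ndufb7 they lay on the strand opposite to the gene. The X-box matched at Ndufb11 alone (2.63%, against 1.86% of all promoters), and no Rfx2 peak lay there. The nearest Rfx2 peak to any of the 42 genes lay 32075 bp from the TSS of Ndufs5. The median G and C content was 59.3% for the 38 promoters and 61.7% for those with both marks.

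Beyond the promoter, MOF had a peak within the body of 1 of the 42 genes (Ndufaf7), H3K4me3 within 1 (Ndufv3) and H3K27Ac within 5 (Ndufa9, Ndufv3, Ndufab1, Ndufb11 and Ndufaf2). Among 9654 genes with both marks and a length within the range of these genes (1850 to 106037 bp), 18.8%, 23.3% and 27.9% had such a peak. The complex I genes were shorter, with a median of 8097 bp against 19151 bp, and the part of length in the difference was not tested.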

How the data were processed

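Reads of the MOF ChIPseq library (single-end) and of the Cut&Run libraries (paired-end) were aligned by the authors to mm10 using Bowtie2 (very sensitive, local), and they called peaks on each library with MACS2. A control library is not given in the sources used here. The H3K4me3 and H3K27Ac lists belong to the repeat libraries by the labels, although the name of the H3K4me3 list carries no repeat mark. The deposited Rfx2, H3K4me3 and H3K27Ac lists give a summit, a score, the fold enrichment over local background, the −log10 p-value and the −log10 q-value from the authors' peak caller. The deposited MOF list gives regions with inner segments and a score only. Its scale and threshold are not given in the sources used here, so it ranked peaks within that list alone. The MOF list is longer than the authors' stated number of MOF peaks. Heights were not compared between lists, which hold no read counts.

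TSSs were those of curated RefSeq transcripts on GRCm38.p6, the assembly that mm10 names. Where several peaks lay at a promoter, the highest was taken. Shares carry exact Clopper-Pearson intervals at 95%, computed with scipy (1.17.1), and those of medians were taken from the ranked values. With 1 list per antibody no test was run. Assignments tested on simulated data were compared with bedtools (2.31.1) and differed at 0 of 5000 promoters. The members and gene lists, written from general knowledge, were chosen with earlier results of these data known. All 42 members are named, in groups by role, with the neighbours that start opposite to them, the comparison lists and 3 promoters picked by MOF score and H3K4me3. The YY1 start codons, and single genes pointed out within a group, were picked after their values were seen. Alternatives changed the window, the overlap, the peak threshold and the transcripts.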

Additional observations from a re-analysis of the deposited data

How the results depend on the processing

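Of 82 values over 10 results and 12 alternative settings, 78 stayed within 1.5 times of a count or within the 95% interval of a share or median. This rule is wide: it passes a fall of H3K4me3 or H3K27Ac from 42 to 28 genes and of MOF from 29 to 21. With the higher 50% of each list (MOF scores of 582 or more), 19 of the 42 genes had MOF (45.2% of those with H3K4me3, against 29.9% of all genes with H3K4me3, where the deposited list gave 69% and 42%). The genes lost were by construction those with scores under 582. Where the centre of the peak had to lie inside the window, 18 genes had H3K4me3, with a median fold enrichment of 7.74. The H3K4me3 peaks kept were wider (median 1640 bp) than the 24 with their centre outside the window (1322 bp). Of these 18 genes, 61.1% had MOF (interval 35.7 to 82.7%), against 34.2% of all genes with H3K4me3. That rule left MOF at 21 genes and lost Ndufa5, Ndufa9, Ndufa12, Ndufv3, Ndufb7, Ndufb8, Ndufc2 and Ndufs5, and requiring 50% of the shorter interval lost the same 8. It also left H3K4me3 at 28 genes, of which 57.1% had MOF (37.5% of all genes with H3K4me3), and H3K27Ac at 29. The shares of all genes with each mark under these rules were not counted. Under the rule of 50% shared and with the higher 50% of each list, the interval for complex I included the share of all genes with H3K4me3. MOF lay at 29 genes (69%) in windows of 500 bp or 2.5 kb on either side, against 42.5% and 44.9% of all genes with H3K4me3. With inner segments alone it lay at 27 (64.3%, against 36.8%), without Ndufa12 and Ndufa13. With GENCODE transcripts it lay at 30 (71.4%, against 41.9%). The last 2 and the count without chromosome X (29 of 40, not set beside all genes) were alternatives added after seeing the data. Rfx2 lay at 0 genes in every setting run. No paired analysis was possible because only a single list was used for each mark or factor. With 42 genes, shares that differ by less than the intervals cannot be separated.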

Other observations

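The core subunits of the membrane arm, Nd1 to Nd6 and Nd4l, are encoded on mitochondrial DNA and were outside the comparison above. All 4 lists held peaks there: 4 for MOF, 8 for H3K4me3, 6 for H3K27Ac and 8 for Rfx2. Of the 7 ND genes, 3 were overlapped by a MOF peak, 1 by H3K4me3, 4 by H3K27Ac and 4 by Rfx2. Mitochondrial DNA carries no histones, and these peaks are given as counts only. Overlaps with its other genes were not counted, so nothing particular to the ND genes is read from them.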
